A study of Homo sapiens with 24 samples.

Results

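The drug by medium interaction at 6 h asks, gene by gene, whether the response of PC9 cells to the loss of asparagine is the same with and without ISRIB. It was computed over the 12 libraries harvested at 6 h of the 24 in the series, as the log2 response to asparagine withdrawal with ISRIB minus the log2 response with vehicle. A negative value means a weaker rise or a deeper fall with the drug, and a positive value a stronger rise or a weaker fall. Genes were then separated by whether ISRIB blocked, left or enlarged their response to withdrawal.

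PC9 is an established human non-small cell lung cancer line. Cells were plated, grown for 2 days, rinsed and given RPMI 1640 with or without asparagine, together with vehicle (0.004% DMSO) or 200 nM ISRIB, and total RNA was sequenced 6 h later. The 4 groups of 6 h are thus asparagine with DMSO, asparagine with ISRIB, no asparagine with DMSO and no asparagine with ISRIB, each with 3 libraries that the submitters call biological triplicates. All 4 received a medium change, the labels name no genetic alteration, and the protocols do not say whether the medium of the experiment held serum. Below, "fed" and "starved" stand for medium with and without asparagine. In the main fit, p-values measure the spread between libraries of a group, estimated over all 24 libraries of the series in 8 groups.

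Cells that lack an amino acid accumulate uncharged tRNA, which activates the kinase GCN2. GCN2 phosphorylates the initiation factor eIF2, and phosphorylated eIF2 inhibits its own exchange factor eIF2B, so that general translation falls while a few mRNAs, among them that of the transcription factor ATF4, are translated more. ATF4 with its C/EBP partners then raises genes for amino acid synthesis, uptake and tRNA charging, a programme called the integrated stress response. ISRIB is a small molecule that binds and stabilizes eIF2B and so counters the effect of eIF2 phosphorylation.

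The 12 libraries held 17115044 to 24053669 counts and 22911 to 25128 detected genes. Epithelial markers were high in all 12, with EPCAM at 415 to 528 and KRT8 at 3108 to 4655 CPM, and EGFR reached 2560.4 CPM. CPM are counts scaled to a common library size, by total counts for the cell type markers and after TMM scaling elsewhere. Markers of other cell types were near 0: PTPRC did not exceed 5 counts, COL3A1 and HBB did not exceed 1, ALB was at 0, and COL1A1 lay between 3.45 and 7.15 CPM. Library trends on transcript GC content ran from -0.35 log2 per 10 points of GC in starved ISRIB replicate 3 to 0.22 in fed vehicle replicate 2, and fed ISRIB replicate 1 stood at -0.19. The part of these trends in the results was not tested, so counts are given with a GC correction and without the libraries of most negative trend too.

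With vehicle, asparagine withdrawal raised 576 (3.31%) and lowered 219 (1.26%) of the 17409 genes tested, 4.57% of them together (edgeR quasi-likelihood test, Benjamini-Hochberg adjusted p below 0.05, here a "call"). With ISRIB, the same withdrawal raised 284 (1.63%) and lowered 116 (0.666%), together 2.3%. The interaction was called for 125 genes (0.718%), of which 115 were lower with ISRIB (0.661%) and 10 higher (0.0574%). In 111 of the 115 the 3 starved vehicle libraries were above the 9 others, as in 2.91% of all genes, and in 8 of the 10 the 3 starved ISRIB libraries were, as in 2.03% of all genes. The same 12 libraries made these calls, so the 111 and the 8 describe the selected genes and are no further evidence. The median interaction over all genes was 0.0079 on the log2 scale, and 64 of the 115 and 2 of the 10 differed by at least 1 log2 unit. After correction for GC the interaction gave 68 higher and 232 lower, and withdrawal with vehicle gave 1070 higher and 747 lower. Without the 3 libraries of the series with the most negative GC trends, 2 of them at 6 h, the interaction gave 24 higher and 161 lower. Fed vehicle replicate 2, with its positive trend of 0.22, was kept there. The 12 libraries of 6 h fitted alone gave 4 and 68. Single libraries moved the vehicle count of 795 to 479 and 523 (without fed vehicle replicate 1 or 2) and to 494 and 505 (without starved vehicle replicate 2 or 3). The ISRIB count of 400 fell to 188 and 231 without fed ISRIB replicate 2 or 3 and to 218 without starved ISRIB replicate 3.

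For ISRIB given with asparagine, 0 of 17409 genes were called by the same edgeR test (0.0%), 203 had an unadjusted p below 0.05, DESeq2 and limma called 0, and edgeR with no filter on low counts called 7. Without asparagine, the estimates for ISRIB against vehicle were large for the genes of the interaction. For the 115 genes lower in the interaction, the median difference between ISRIB and vehicle was -0.0036 with asparagine, below 0 in 58 of them, and -1.11 without it. For the 10 higher genes these medians were -0.022 and 0.77. These 2 differences share no library, although the interaction itself is made of both.

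**Figure D1:**
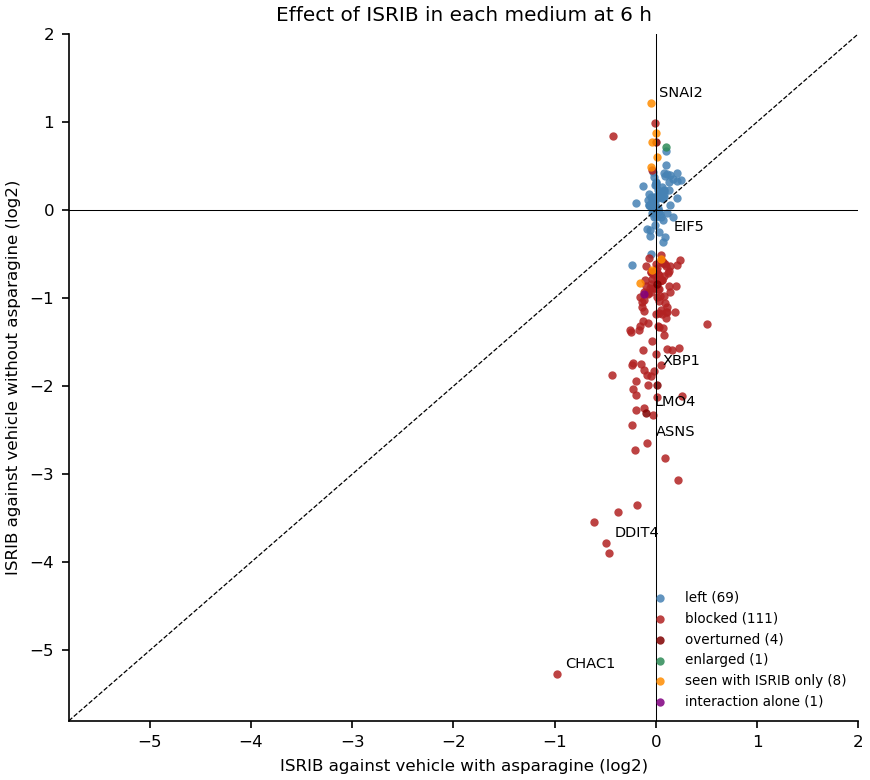
Log2 difference between ISRIB and vehicle with asparagine (horizontal axis) and without it (vertical axis) for the classified genes, 1 point per gene, with the dashed line marking equal effects. The blocked genes lie along the vertical axis, around 0 with asparagine and well below 0 without it (ASNS -0.084 and -2.64), and the left genes lie around 0 on both axes.

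The 795 genes that responded with vehicle were sorted by fixed limits. "Blocked" are genes whose interaction was called against the response and whose response with ISRIB was under 0.5 of that with vehicle or of the opposite sign, and "overturned" those among them whose opposite response with ISRIB was itself called. "Left" are genes whose interaction was not called, whose response with ISRIB was called in the same direction, and for which the 95% interval of the interaction excluded a loss of 0.5 of the response. "Enlarged" are genes whose interaction was called in the direction of the response, and the remainder is "undecided". On these limits 111 of the 576 rises were blocked or overturned, 50 were left, 1 was enlarged and 414 were undecided, and of the 219 falls 4 were blocked or overturned, 19 left and 196 undecided. The classes are cut from the same values, so the medians within a class describe it and test nothing. The count of 69 left genes fell to 37, 37 and 42 without fed vehicle replicate 1, 2 or 3 and to 43, 40 and 35 without starved vehicle replicate 1, 2 or 3. Without the 3 libraries of most negative GC trend there were 168 blocked or overturned, 113 left and 1641 undecided genes.

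**Figure D2:**
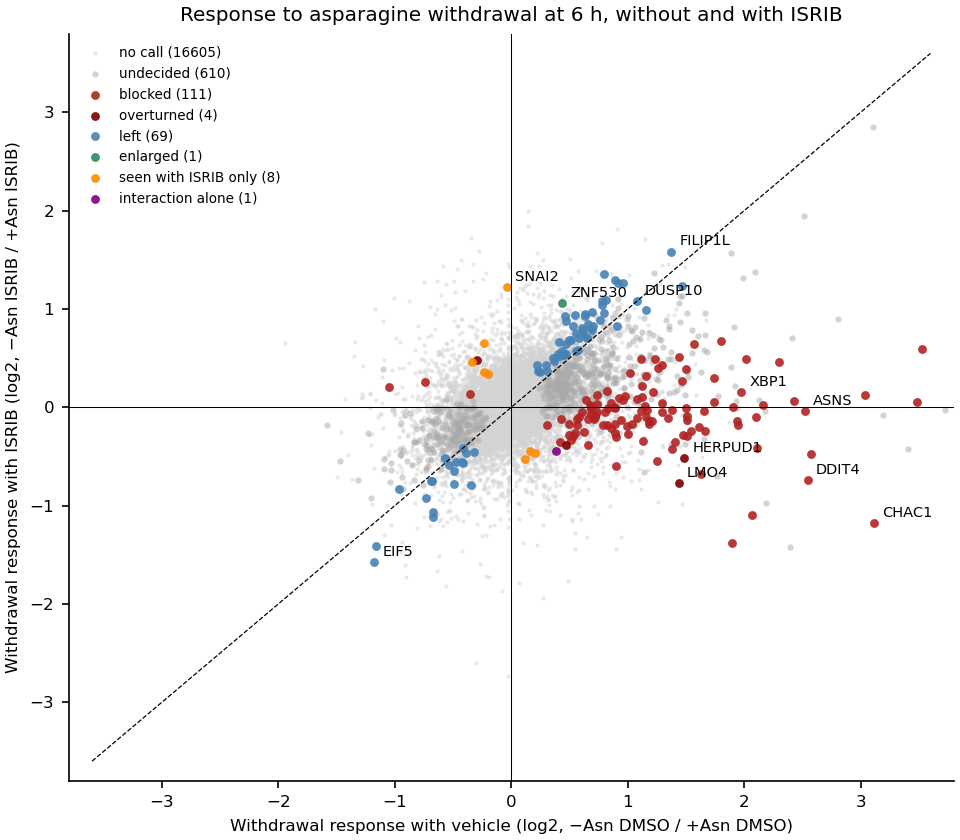
Log2 response to asparagine withdrawal with vehicle (horizontal axis) against that with ISRIB (vertical axis), 1 point per tested gene, coloured by class, with the dashed line marking equal responses and 2 of the 17409 genes outside the range drawn. The 108 blocked rises spread along the horizontal axis at a response near 0 with ISRIB, while the 69 left genes follow the dashed line (EIF5 -1.18 with vehicle and -1.57 with ISRIB).

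The withdrawal responses with vehicle and with ISRIB come from separate libraries. Of the 576 vehicle rises, 449 (78.0%) were above 0 with ISRIB, where 50.6% of all genes were, and 130 were called in the same direction and 3 in the other. The median response of these 576 was 0.71 with vehicle and 0.24 with ISRIB, the former being raised by the selection on it. Of the 219 falls, 207 (94.5%, against 49.4% of all genes) were below 0 with ISRIB, 48 of them called and 1 called the other way, at medians of -0.51 and -0.27. The share blocked or overturned was 3.92% of the 153 rises under 0.5, 15.5% of the 252 between 0.5 and 1 and 38.6% of the 171 of 1 or more. The smallest interaction called lower was 0.48 in size, so that a rise under 0.5 could hardly be called even if wholly lost, and these shares do not compare the degree of blocking between sizes. Among falls these shares were 1.87% of 107, 1.03% of 97 and 6.67% of 15. In the middle band the median response with ISRIB was 0.31 for rises of 0.70 and -0.35 for falls of -0.67. Whether rises and falls are blocked to different degrees was not tested.

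ASNS encodes asparagine synthetase, which makes asparagine from aspartate and glutamine, and lies on chr7:97852118-97872542, minus strand (GRCh38, GENCODE 29). With vehicle it stood at 30.8, 26.7 and 29.5 CPM in the 3 fed and 175, 151 and 173 CPM in the 3 starved libraries. With ISRIB it stood at 30.3, 25.8 and 26.0 CPM fed and 28.2, 22.8 and 28.9 CPM starved. Only the starved vehicle libraries were high, and the 9 others overlapped. The response was 2.52 ± 0.098 (log2 ± SE) with vehicle and -0.040 ± 0.101 with ISRIB, an interaction of -2.56 ± 0.14 (adjusted p = 4.19e-10, edgeR), and it stayed between -2.63 and -2.46 when each library was left out in turn.

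ATF4, DDIT3, CEBPG and TRIB3, regulators of the stress response, rose with vehicle and were blocked, as ASNS was. Of 27 tested genes of its core (kinases, eIF2B and eIF2 subunits, phosphatase subunits and transcription factors), 7 rose and 1 fell with vehicle, 4 were blocked, 1 was left and 3 were undecided. Over all genes, 3.31% rose and 1.26% fell with vehicle, 1.63% rose with ISRIB and 0.661% were called lower in the interaction. These shares stand beside the counts of every list below. ATF4 mRNA, whose protein drives the programme, stood at 569, 652 and 659 CPM fed and 1026, 1131 and 1164 CPM starved with vehicle, and at 572, 635 and 689 and 474, 552 and 652 CPM with ISRIB. The starved vehicle libraries were all above the 9 others, and the interaction was -0.998 ± 0.14 (adjusted p = 2.83e-04, edgeR). DDIT3, which encodes the C/EBP factor CHOP, rose by 1.499 with vehicle and stood at 0.39 with ISRIB, with an interaction of -1.11 ± 0.22 that missed the threshold (adjusted p = 0.0546) without fed ISRIB replicate 2. CEBPG, a C/EBP partner of ATF4, had an interaction of -1.06 ± 0.14. TRIB3, a pseudokinase that binds ATF4 and CHOP, went from 94.2 ± 6.98 to 360.2 ± 41.8 CPM with vehicle (mean ± SD, n = 3) and from 82.0 ± 6.11 to 74.6 ± 11.1 CPM with ISRIB. Its interaction of -2.07 ± 0.18 had an adjusted p of 6.64e-07 in edgeR.

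ATF3, another bZIP factor, could not be placed. It stood at 20.9, 42.4 and 27.2 CPM in the starved vehicle libraries and at 8.98, 12.9 and 9.82 CPM fed, against 8.28, 13.1 and 10.4 CPM starved and 6.87, 8.93 and 9.86 CPM fed with ISRIB. The starved vehicle libraries were again above the 9 others but far apart, and the interaction of -1.21 ± 0.33 had an adjusted p of 0.141 in edgeR, which became 0.0433 without starved vehicle replicate 1 and 0.0223 with the replicate number as a block.

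Of 40 tested genes that ATF4 and CHOP are known to raise, 35 rose with vehicle, 2 rose with ISRIB, and 25 were called lower in the interaction, as 0.661% of all genes were. Most of the 115 genes called lower thus lay outside this list. The median interaction of the 40 listed genes was -1.25, beside 0.0079 over all genes. The list rests on textbook targets and on earlier results of these data, so it is no independent evidence of direction. The other members that responded were 2 left genes and 9 undecided ones. VLDLR, a lipoprotein receptor, went from 1.41, 1.15 and 1.25 to 9.07, 7.70 and 6.08 CPM with vehicle and stood at 1.10, 0.726 and 1.14 and 0.796, 0.649 and 0.648 CPM with ISRIB (interaction -3.05 ± 0.34). CHAC1, which degrades glutathione, had the lowest estimate of the list at -4.29 ± 0.68 (adjusted p = 8.39e-04, edgeR). Its levels were 20.7, 32.1 and 15.3 CPM starved and 2.32, 2.29 and 3.24 CPM fed with vehicle, and 0.796, 0.811 and 0.0648 CPM starved and 0.797, 1.495 and 1.69 CPM fed with ISRIB, so that the starved ISRIB values rest on few reads and the last on 1.

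Of 18 tested brakes on the growth kinase mTORC1 and amino acid sensors, DDIT4 and SESN2 rose with vehicle and both were blocked. DDIT4, which restrains mTORC1 through TSC2, stood at 54.4, 75.7 and 37.3 CPM in starved vehicle and 4.67, 4.76 and 2.59 CPM in starved ISRIB cells, with 9.03, 11.8 and 7.88 and 5.48, 7.13 and 7.74 CPM in the fed groups. The starved ISRIB libraries were below all 9 others, and the difference from fed vehicle was -1.24 (adjusted p = 0.0185, edgeR). SESN2, a leucine sensor that acts on GATOR2, had an interaction of -2.21 ± 0.29, from 72.7 ± 17.7 CPM in starved vehicle to 13.3 ± 2.11 CPM in starved ISRIB cells.

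**Figure D3:**
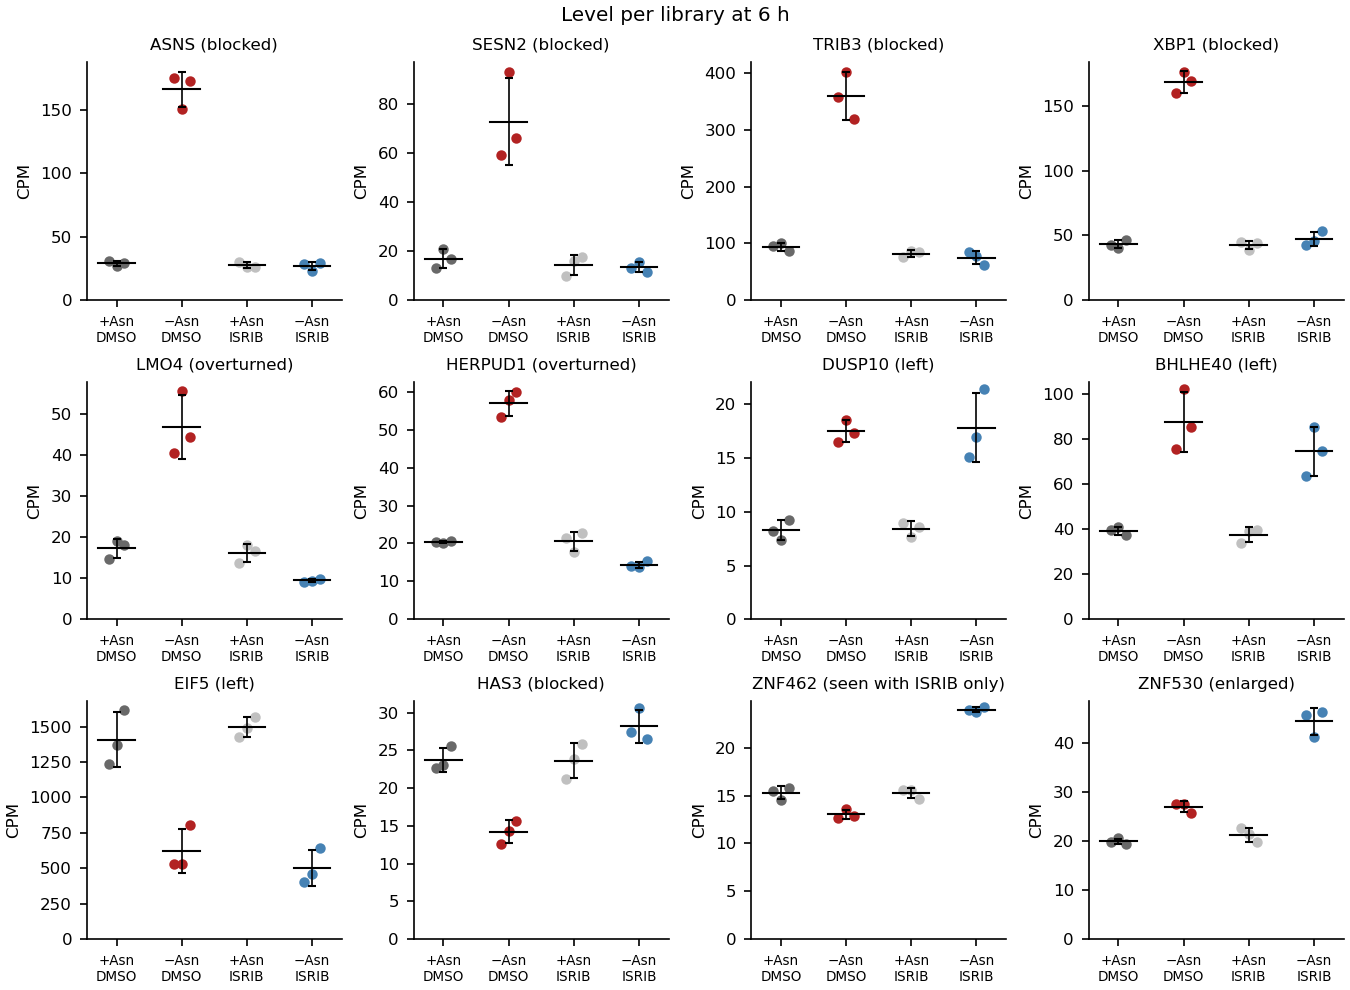
Level in CPM (linear axis from 0) of 12 genes in each of the 12 libraries of 6 h, with bars for the mean and SD of the 3 libraries of a group. ASNS, SESN2, TRIB3 and XBP1 were high in starved vehicle cells alone, LMO4 and HERPUD1 fell below the fed level in starved ISRIB cells, DUSP10, BHLHE40 and EIF5 moved alike with and without the drug, and ZNF462 was high in starved ISRIB cells alone.

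Enzymes that make amino acids or supply one-carbon units followed ASNS. Of 27 tested, 12 rose with vehicle and 10 were blocked: ASNS, GPT2, GOT1, PSAT1, PHGDH, SHMT2, MTHFD2, CTH, CBS and PCK2. PSAT1, an aminotransferase of serine synthesis, went from 127 ± 11.8 to 362 ± 42.0 CPM with vehicle and stood at 127 ± 16.2 and 116 ± 21.3 CPM with ISRIB (mean ± SD, n = 3). Its interaction was -1.63 ± 0.20 (adjusted p = 6.43e-05, edgeR), and 3 processed PSAT1 pseudogenes in the same class may share its reads. GPT2, the mitochondrial alanine aminotransferase, had an interaction of -1.47 ± 0.16 and ended below fed vehicle (-0.47, adjusted p = 0.0202). CTH and CBS, which make cysteine from homocysteine, had interactions of -2.12 ± 0.28 and -3.28 ± 0.62 at low levels, with CTH at 7.07 ± 0.770 CPM in starved vehicle cells. CBS had a mean of only 0.488 CPM over the 12 libraries, so that its estimate rests on few reads.

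Among amino acid transporters, 7 of 18 tested rose with vehicle and 5 were blocked: SLC1A4, SLC7A1, SLC7A11, SLC6A9 and SLC38A2. SLC6A9, a glycine transporter, went from 13.7, 16.4 and 14.3 to 52.0, 47.5 and 40.7 CPM with vehicle and stood at 13.6, 10.4 and 8.56 CPM in starved ISRIB cells (interaction -1.90 ± 0.29, adjusted p = 8.95e-04, edgeR). SLC7A11, the cystine and glutamate exchanger, stood at 1176 ± 119 CPM in starved vehicle and 526 ± 132 CPM in starved ISRIB cells (interaction -1.27 ± 0.20). SLC38A2, which takes up small neutral amino acids, was blocked only in part: it still rose by 0.51 with ISRIB (adjusted p = 0.0404, edgeR) after 1.44 with vehicle.

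Cytosolic aminoacyl-tRNA synthetases, which charge tRNAs, rose with vehicle in 10 of 18 tested, and 6 were blocked (GARS, SARS, WARS, AARS, MARS and YARS), while of 16 mitochondrial ones 1 rose and was undecided. SARS had small spread, with 138, 139 and 140.2 CPM fed and 221, 223 and 225 CPM starved with vehicle and 135, 139 and 135 and 132, 140.2 and 132 CPM with ISRIB. The starved vehicle libraries stood apart and the 9 others overlapped, for an interaction of -0.70 ± 0.086 (adjusted p = 6.43e-05, edgeR). GARS had the largest interaction of these 6 at -1.41 ± 0.17. NARS, the asparaginyl-tRNA synthetase, rose by 0.51 with vehicle and had an uncalled interaction of -0.44 ± 0.17 (adjusted p = 0.633), called with the GC correction (0.0243) and without the libraries of most negative GC trend (0.0316).

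Genes of the endoplasmic reticulum stress response rose with vehicle in 5 of 29 tested, and 4 of those were blocked or overturned (XBP1, HERPUD1, ERN1 and HSPA5). XBP1, a transcription factor of the unfolded protein response, stood at 42.7, 40.1 and 46.3 CPM fed and 160.0, 177 and 169.6 CPM starved with vehicle and at 45.0, 38.6 and 44.0 and 42.6, 46.02 and 53.5 CPM with ISRIB. Its interaction was -1.82 ± 0.14 (adjusted p = 8.65e-08, edgeR). ERN1, the gene of the sensor IRE1 that splices XBP1 mRNA, kept a part of its rise: 1.24 ± 0.098 with vehicle and 0.49 ± 0.0997 with ISRIB (adjusted p = 0.00757, edgeR), an interaction of -0.74 ± 0.14. HSPA5, the chaperone BiP, rose by 0.49 and had an interaction of -0.66 ± 0.15 with an adjusted p of 0.0467, near the threshold.

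Genes with other roles were blocked too. TNFSF15, a cytokine of the TNF family, and GRB10, an adaptor that damps insulin receptor signalling, had interactions of -2.13 ± 0.27 and -1.91 ± 0.25. TNFSF15 was one of 23 tested inflammatory genes and the one of them with a called interaction, at 23.3, 24.0 and 24.6 CPM in starved vehicle cells and 5.85, 4.59 and 5.64, 6.47, 4.61 and 5.17 and 6.21, 3.89 and 6.48 CPM in the other groups. The list's median lay on the other side, with an interaction of 0.43 beside 0.0079 over all genes. ETV5, an ERK-induced ETS factor, was the blocked one of 30 immediate early and ERK feedback genes (0.98 with vehicle, 0.12 with ISRIB, interaction -0.86 ± 0.12, adjusted p = 2.49e-04, edgeR). MAP1LC3B, which marks autophagosome membranes, was the blocked one of 28 autophagy and lysosome genes, 6 of which rose with vehicle (interaction -1.02 ± 0.18). Of 18 secreted hormones and growth factors, 10 rose with vehicle and ADM2, STC2 and VEGFA were blocked. ADM2, an adrenomedullin-family peptide, went from 0.917 ± 0.170 to 10.6 ± 2.28 CPM with vehicle and from 0.590 ± 0.188 to 0.887 ± 0.319 CPM with ISRIB. GDF15, a stress hormone, was undecided: 44.8, 70.7 and 29.1 CPM in starved vehicle and 12.05, 21.4 and 7.39 CPM in starved ISRIB libraries, an interaction of -1.48 ± 0.63 with an adjusted p of 0.780. Its replicate 2 was the highest of each of the 4 groups, and the adjusted p became 0.00132 with GC correction and the replicate number as a block, and 8.86e-08 with no filter on low counts. VEGFA, the angiogenic factor, had an interaction of -0.86 ± 0.18 whose call was lost when any of 5 libraries was left out (fed vehicle 1, fed ISRIB 2 or 3, starved vehicle 2 and starved ISRIB 1; adjusted p up to 0.0733).

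**Figure D4:**
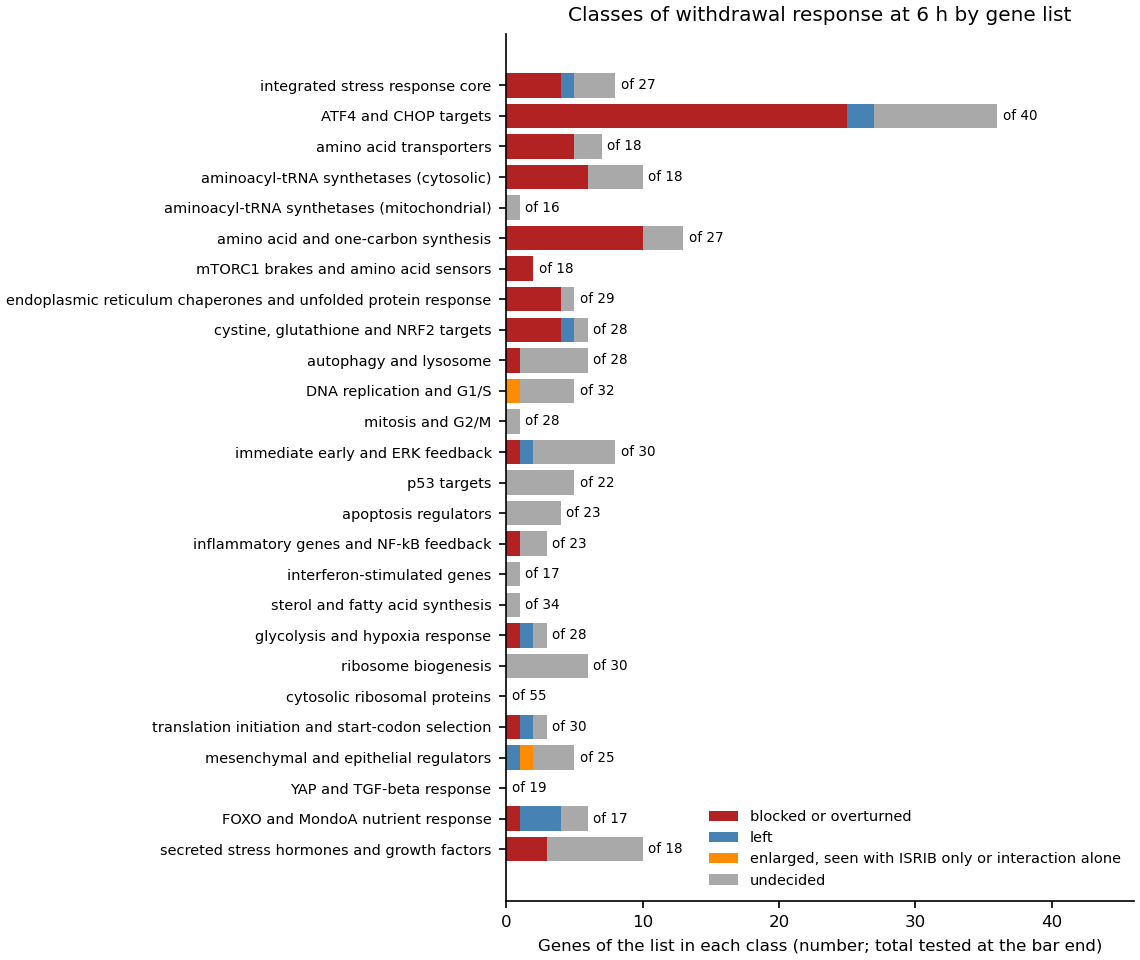
Number of genes of each of 26 gene lists in each class of withdrawal response, as stacked bars from 0, with the number tested at the bar end. Of the responders drawn, 25 were blocked, 2 left and 9 undecided among ATF4 and CHOP targets (40 tested), and 10 blocked and 3 undecided in amino acid and one-carbon synthesis (27 tested), whereas the responders among p53 targets and ribosome biogenesis were all undecided.

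As a median, blocked rises lay close to the fed vehicle level in starved ISRIB cells, which the limits of the class favour. Against fed vehicle, the 108 blocked rises had a median difference of -0.073, and 11 of them differed by test, 6 higher and 5 lower, where starved ISRIB against fed vehicle called 4.18% of all genes, 3.08% higher and 1.1% lower. That last count of 727 fell to 274, 298 and 478 without fed vehicle replicate 1, 2 or 3 and to 242 without starved ISRIB replicate 3. The 5 lower were CHAC1, DDIT4, JDP2, GPT2 and SGPL1, and the 6 higher TES, ERN1, MXD1, SLC38A2, ZCCHC8 and SYNE1.

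In 3 further rises the response was overturned. HERPUD1, a membrane protein of endoplasmic reticulum associated degradation on chr16:56932048-56944863, plus strand, stood at 20.4, 20.1 and 20.7 CPM fed and 53.4, 57.7 and 59.8 CPM starved with vehicle, and at 21.4, 17.7 and 22.7 CPM fed and 14.1, 13.7 and 15.3 CPM starved with ISRIB. The starved ISRIB libraries were below all 9 others. It rose by 1.48 ± 0.11 with vehicle and fell by 0.52 with ISRIB (adjusted p = 0.0128, edgeR), an interaction of -2.00 ± 0.16. LMO4 did the same from a fed level of 13.8, 18.1 and 16.6 CPM to 9.18, 9.46 and 9.85 CPM with ISRIB, after 14.6, 19.1 and 18.1 to 40.5, 55.4 and 44.3 CPM with vehicle. The third, XPOTP1, is a processed pseudogene of the tRNA exporter XPOT, a blocked gene, and may share its reads.

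Blocked falls were few. HAS3, a hyaluronan synthase, stood at 22.7, 23.0 and 25.5 CPM fed and 12.6, 14.3 and 15.7 CPM starved with vehicle and at 21.2, 23.9 and 25.9 and 27.4, 30.6 and 26.5 CPM with ISRIB. The starved vehicle libraries were below the 9 others, and the interaction was 0.99 ± 0.17 (adjusted p = 0.00259, edgeR). URB2, a ribosome biogenesis factor, had an interaction of 0.49 ± 0.0996, a call lost without fed vehicle replicate 3 (adjusted p = 0.0635) or starved vehicle replicate 1 (0.0622).

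Calls of some blocked genes named above depended on the alternative. With the 6 h libraries fitted alone, the interactions of DDIT3, ERN1, HSPA5, GOT1, SHMT2, SLC7A1, SLC38A2, MARS, STC2, VEGFA, URB2, XPOT, SGPL1, ZCCHC8 and SYNE1 lost their calls, at adjusted p from 0.0517 for SLC7A1 to 0.158 for HSPA5, with ERN1 at 0.0566. With no filter on low counts, ERN1 (0.0776), SHMT2 (0.111), ZCCHC8 (0.109), SYNE1 (0.298), SGPL1 (0.487) and URB2 (0.732) lost theirs, and with the GC correction YARS did (0.0651). The call was also lost on leaving out any 1 of 11 libraries for SYNE1, 10 for SHMT2 and for HSPA5, 9 for ZCCHC8, 6 for XPOT, 5 for MARS and 3 for SLC7A1.

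ATF4 and its C/EBP partners bind composite elements of the form TGATGNAA. This motif, searched on both strands from 250 bases before to 50 bases after the gene start in the RefSeq promoter table (GRCh38.p14), occurred in 3.62% of all 35116 windows and in 2.71% of the 10036 tested genes with a window. Among the 111 blocked or overturned rises, 78 had a window and 15 of these held the motif (19.2%). Of the 69 left genes, 52 had a window and 0 held it, and of the 572 vehicle responders with a window 47 did (8.22%). The shares describe these windows, a match is not a shown binding site, and no match says only that these letters are absent from the window. Stretches around the motif are shown for 5 blocked or overturned genes, 5′ to 3′ in the direction of the gene's strand, with the motif in capitals (TTGCATCA is its other strand).
ASNS, chr7:97872459-97872486, minus strand: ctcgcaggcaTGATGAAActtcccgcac
CHAC1, chr15:40953252-40953279, plus strand: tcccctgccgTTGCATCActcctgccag
HERPUD1, chr16:56931936-56932003, plus strand: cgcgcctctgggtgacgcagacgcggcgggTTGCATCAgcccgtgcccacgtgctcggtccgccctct
SLC1A4, chr2:64989362-64989399, plus strand: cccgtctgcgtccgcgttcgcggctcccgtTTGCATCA
CEBPG, chr19:33374041-33374108, plus strand: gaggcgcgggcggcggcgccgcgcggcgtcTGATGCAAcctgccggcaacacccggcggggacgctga

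Left genes are by their limits those that kept the response, and the median response with ISRIB was 132% of that with vehicle in the 50 rises and 126% in the 19 falls. EIF5, the GTPase-activating protein of eIF2 that governs start-codon choice, lies on chr14:103333544-103345025, plus strand, and had the deepest fall. It stood at 1236, 1367 and 1618 CPM fed and 533, 532 and 802 CPM starved with vehicle, and at 1429, 1489 and 1569 and 399.8, 462 and 644 CPM with ISRIB. The fed and starved libraries did not overlap in either arm. The response was -1.18 ± 0.16 with vehicle and -1.57 ± 0.16 with ISRIB, and the interaction of -0.40 had a 95% interval from -0.87 to 0.077. Its processed pseudogene EIF5P1 moved alike (-1.16 and -1.42) and may share reads. HSPA8, the constitutive HSC70 chaperone, fell by 0.73 with vehicle and by 0.92 with ISRIB. GALNT10, which starts mucin-type glycosylation, went from 138 ± 2.84 to 85.7 ± 1.85 CPM with vehicle and from 137 ± 0.971 to 81.1 ± 8.11 CPM with ISRIB. TBC1D30, a Rab GTPase-activating protein, responded by -0.96 ± 0.105 and -0.84 ± 0.105.

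Among the left rises, FBXO32, the FOXO-induced ubiquitin ligase atrogin-1, stood at 9.49, 13.3 and 11.97 CPM fed and 24.4, 38.5 and 32.7 CPM starved with vehicle, and at 11.8, 11.5 and 10.0 and 21.1, 26.5 and 30.7 CPM with ISRIB. All starved libraries were above all fed ones, and the responses were 1.46 ± 0.15 and 1.23 ± 0.15. DUSP10, a phosphatase of the stress kinases JNK and p38, responded by 1.08 ± 0.15 and 1.08 ± 0.15, with an interval of the interaction from -0.43 to 0.44. BHLHE40, a repressor of the circadian clock, responded by 1.16 ± 0.13 and 0.99 ± 0.13, and GATA6, an endoderm and lung transcription factor, by 0.96 ± 0.13 and 1.27 ± 0.13. FILIP1L responded by 1.37 ± 0.28 and 1.58 ± 0.28, the latter resting on 26.1, 32.1 and 62.2 CPM in the starved ISRIB libraries, of which the last is high. TXNIP and ARRDC4, arrestins that curb glucose uptake and are known MondoA targets, were left too (0.78 and 1.08, 0.47 and 0.64). Of 17 FOXO and MondoA genes tested, 6 rose with vehicle and 4 with ISRIB, 3 were left and 1, KLHL24, was blocked, a call lost without any 1 of 9 libraries (adjusted p up to 0.131).

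PPP1R15A encodes GADD34, the subunit that directs a phosphatase to eIF2 and so ends the stress response. It is a known target of the same pathway, yet stood at 143, 231 and 211 CPM fed and 254, 421 and 351 CPM starved with vehicle, and at 150.4, 216 and 219 and 294, 476 and 481 CPM with ISRIB. In each arm the starved libraries were above the fed ones, by 0.81 ± 0.23 and 1.10 ± 0.23. The vehicle response was near the threshold (adjusted p = 0.0478, edgeR), and the interaction of 0.29 ± 0.33 was not called. The interval of the interaction, from -0.39 to 0.96, only narrowly excluded a loss of 0.5 of the vehicle response. PPP1R15A thus met the limits for a left gene by a small margin. The response with ISRIB lost its call without fed ISRIB replicate 1 (adjusted p = 0.0656), starved ISRIB replicate 2 (0.0561) or 3 (0.0568), and was 0.81 (0.116) without the libraries of most negative GC trend.

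Among 30 immediate early and ERK feedback genes, 7 rose with vehicle and 8 with ISRIB, where 3.31% and 1.63% of all genes did. KLF4, KLF5, KLF6 and KLF10, zinc-finger factors induced early by stimuli, rose in both arms, by 1.06 and 0.82, 1.14 and 0.91, 0.89 and 0.96, and 0.92 and 1.26. KLF10 met the limits for a left gene and the other three were undecided. JUN, FOSL2 and IER2 passed the test with ISRIB alone (0.86, 0.66 and 1.17), but their interactions of 0.59, 0.29 and 0.47 were not called, so no difference between the arms was shown.

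A response larger with ISRIB, or called with it alone, was found for 9 genes. ZNF530, a zinc-finger gene, was the enlarged one: 19.8, 20.5 and 19.5 CPM fed and 27.6, 27.7 and 25.8 CPM starved with vehicle, and 22.7, 21.4 and 19.8 and 45.7, 41.3 and 46.3 CPM with ISRIB. The interaction of 0.62 ± 0.13 (adjusted p = 0.0161, edgeR) lost its call without fed vehicle replicate 2 (0.0569), fed ISRIB replicate 3 (0.0672), starved vehicle replicate 3 (0.0648) or starved ISRIB replicate 1 (0.0514). The other 8 had an interaction and an ISRIB response called and no call with vehicle, 5 rising (SNAI2, ZNF462, FOXC1, CDC25A and RUNDC1) and 3 falling (COL4A1, TBC1D14 and RP11-443P15.2). Without fed ISRIB replicate 2 there were 4 such genes in all in place of 9, and without the libraries of most negative GC trend 16.

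SNAI2, the mesenchymal repressor Slug, stood at 4.44, 3.598 and 4.64 CPM fed and 4.06, 4.22 and 4.08 CPM starved with vehicle, and at 4.43, 3.802 and 4.03 and 8.76, 8.81 and 11.1 CPM with ISRIB. The starved ISRIB libraries were above all 9 others, and the interaction was 1.26 ± 0.25 (adjusted p = 0.0118, edgeR). It was the one gene called among 25 tested mesenchymal and epithelial regulators. ZNF462 was at 24.0, 23.8 and 24.3 CPM in starved ISRIB cells and between 12.7 and 15.9 CPM in the 9 other libraries, with an interaction of 0.88 ± 0.14 (adjusted p = 0.00101). CDC25A, the phosphatase that activates CDK2 at the start of S phase, went from 56.5 ± 2.06 to 72.6 ± 4.16 CPM with ISRIB and from 56.1 ± 2.07 to 47.8 ± 3.49 CPM with vehicle (interaction 0.59 ± 0.11, adjusted p = 0.00595). It was the one gene called of 32 tested DNA replication and G1/S genes, of which 3 fell with vehicle and 4 rose with ISRIB. With no filter on low counts CDC25A lost its call (adjusted p = 0.284). FOXC1, a forkhead factor, had an interaction of 0.80 ± 0.15. With the 6 h libraries fitted alone, SNAI2 and ZNF462 were called and CDC25A (0.0596), FOXC1 (0.0763), ZNF530 (0.0691), RUNDC1 (0.110), COL4A1 (0.134), TBC1D14 (0.133) and RP11-443P15.2 (0.119) were not (adjusted p, edgeR). Calls for RUNDC1, COL4A1, TBC1D14 and RP11-443P15.2 were lost on leaving out any 1 of 5, 7, 2 and 9 libraries (adjusted p up to 0.0674, 0.110, 0.0646 and 0.134). The interaction of KCTD15, -0.83 ± 0.17, was called with neither response called, and was lost without fed vehicle replicate 3 (0.0703), fed ISRIB replicate 3 (0.0715) or starved vehicle replicate 1 (0.0689), and with the 6 h libraries alone (0.0540).

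The undecided genes are the larger part, 610 of the 795 vehicle responders. Their median response with ISRIB was 43.9% of that with vehicle for the 414 rises and 49.7% for the 196 falls, 360 and 188 of them on the same side of 0 in both arms. For 184 rises and 52 falls the interaction had an unadjusted p below 0.05, beside 5.48% of all genes, and for 129 rises and 55 falls its 95% interval excluded a full loss. All were selected on the vehicle response, which enters the interaction with a minus sign. These shares and counts therefore describe the class and test nothing. All 5 p53 targets that rose with vehicle (of 22 tested) were of this class, among them BBC3, the apoptosis inducer PUMA (1.55 with vehicle, 0.55 with ISRIB). The 6 genes of the ribosome biogenesis list that fell, a list that does not hold URB2, and the EGFR ligands AREG, EREG and HBEGF (1.35 and 0.83, 1.45 and 1.13, 1.45 and 0.87) were too. PPARGC1B, a coactivator of mitochondrial genes, fell by 1.04 with vehicle and by 0.76 with ISRIB, both called, and its interaction of 0.28 ± 0.15 was not.

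The 28 tested cystine, glutathione and NRF2 genes split. CHAC1, CTH, CBS and SLC7A11 were blocked, while 5 genes fell with ISRIB: HMOX1 (-0.81), OSGIN1 (-1.07), AKR1B10 (-0.41), AKR1C2 (-0.38) and GSR (-0.25). With vehicle these stood at -0.12, -0.67, -0.21, -0.14 and -0.079, and their interactions, from -0.69 to -0.17, were not called (adjusted p = 0.273 for HMOX1), while the GC correction called HMOX1 (0.0166) and OSGIN1 (0.00735). The list's median interaction was -0.21, beside 0.0079 over all genes.

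The same interaction at 24 h, from 12 other libraries, called 1577 genes (9.06%), 604 higher and 973 lower, and the difference between the times called 127 (0.73%), 61 higher (0.35%) and 66 lower (0.379%). Of the 115 genes lower at 6 h, 19 were called lower and 4 higher at 24 h, where 5.59% of all genes were called lower, and their median was -0.30 at 24 h. The difference between times was called for 33 of the 115 and 2 of the 10. These genes were picked on the interaction at 6 h, which enters that difference with a minus sign. The 33 and the 2 therefore describe the selected genes and test nothing. XBP1, TRIB3 and SESN2 had interactions of 0.31 ± 0.14, 0.34 ± 0.18 and 0.45 ± 0.31 at 24 h, and the differences between times of 2.12 ± 0.19, 2.41 ± 0.25 and 2.66 ± 0.42 had adjusted p-values of 2.90e-06, 2.01e-05 and 0.00385 (edgeR). ASNS kept an interaction of -1.35 ± 0.14 at 24 h, and SLC7A11 one of -1.14 ± 0.20 with a difference of 0.13 ± 0.29 that was not called. The count of 127 fell to 73 without fed vehicle replicate 3, to 73 and 72 without fed ISRIB replicate 2 or 3, and to 70 and 77 without starved vehicle replicate 1 or 2.

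Genes left at 6 h had a one-sided interaction at 24 h. Of the 50 left rises, 23 were called higher at 24 h and none lower, where 3.47% of all genes were called higher, and of the 19 left falls 15 were called lower and 1 higher. EIF5 had an interaction of -2.14 ± 0.23 at 24 h, made of a response of -0.012 with vehicle and -2.15 with ISRIB. GATA6 had -0.072 and 1.44, and DUSP10 -0.039 and 1.05. BHLHE40, left at 6 h, stood near 0 in both arms at 24 h (0.020 and 0.00998). The count of 1577 rose to 2507 without starved ISRIB replicate 3 of 6 h, which enters through the estimates that all libraries share.

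**Figure D5:**
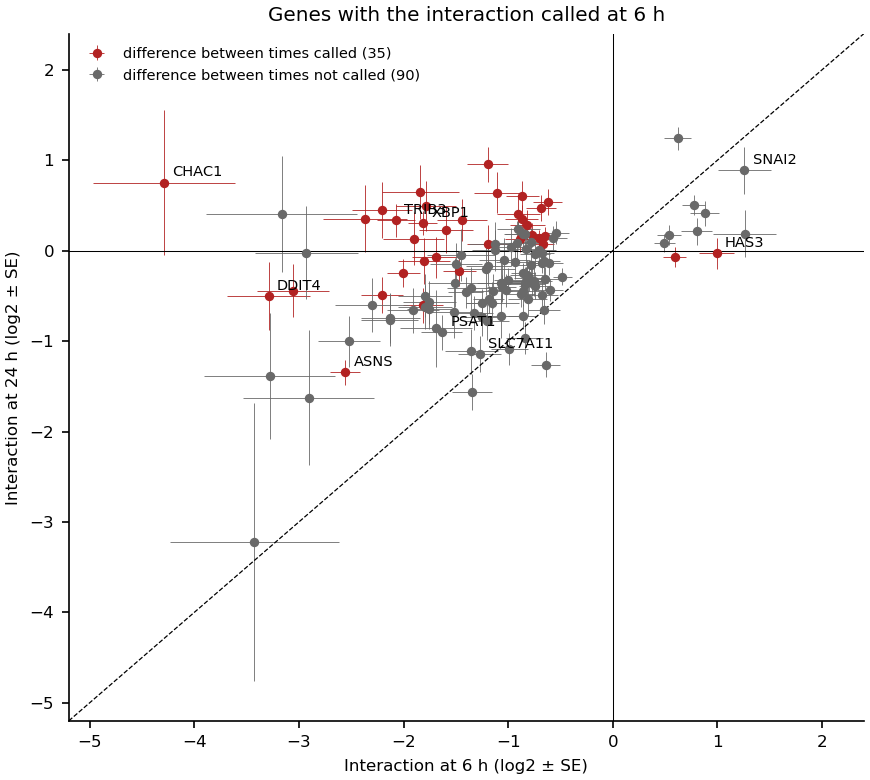
Interaction at 6 h (horizontal axis, log2 ± SE) against that at 24 h (vertical axis, log2 ± SE) for the 125 genes called at 6 h, 1 point per gene, in red where the difference between times was called (35 genes), with the dashed line marking equal values. Most genes low at 6 h lie near 0 at 24 h (XBP1 -1.82 and 0.31), while SLC7A11 and SNAI2 keep their side.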

How the data were processed

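Total RNA of 24 PC9 samples (8 groups of 3) was sequenced, and the 4 groups of 6 h are described here. The authors deposited a table of raw counts per gene and a table of log2 values of a variance-stabilizing transformation. Per the submitters' processing notes, Bowtie2, featureCounts, DESeq2 and hg38 were used; versions, annotation and strand setting are not given in the sources used here, so overlapping and antisense genes and pseudogene copies are uncertain. Groups were taken from the sample titles.

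The counts were fitted with edgeR 4.0.16 (R 4.3.3) over all 24 libraries with 8 group means (16 residual degrees of freedom), after filterByExpr (17409 of 37411 genes) and TMM scaling, by the quasi-likelihood test. P-values were adjusted by Benjamini-Hochberg over all genes in each of 7 comparisons, and a call is an adjusted p below 0.05. CPM use TMM library sizes, except those of the cell type markers, which use total counts, and intervals are 95%. Positions are from GENCODE 29, to which 36620 genes matched. Alternatives were DESeq2 1.42.0, limma 3.58.1 on the deposited log2 values, other scalings and filters, the 6 h libraries alone, GC correction (17326 genes), the replicate number as a block, and each library of 6 h left out. Scripts were tested on simulated data.

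Named genes are 12 followed genes, the 10 lowest and 10 highest called interactions with a mean of at least 5 CPM, up to 5 genes per class and direction by size of response, and up to 3 per gene list by p, 66 in all, 1 of which is not reported here. Other genes named were chosen after their values were seen. The comparison, the members and the 26 lists were chosen with earlier results of these data known.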

Additional observations from a re-analysis of the deposited data

Results flagged for a closer look

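For 25 named genes the interaction differed between 24 h and 6 h by a test of that difference (edgeR, adjusted p below 0.05), which is the reason they are given here. Some of the 25 were named for a called interaction at 6 h, which enters the difference with a minus sign. Their number and signs therefore describe the selected genes and test nothing. The difference, 24 h minus 6 h on the log2 scale, was above 0 for 18 of the 25, meaning that the interaction was less negative or more positive at 24 h. Among the stress regulators and their targets it was 5.05 for CHAC1, 2.79 for DDIT4, 2.66 for SESN2, 2.61 for VLDLR, 2.41 for TRIB3, 2.12 for XBP1, 1.75 for DDIT3, 1.75 for HERPUD1 and 1.21 for ASNS. Among transporters, synthetases and enzymes it was 2.04 for SLC6A9, 1.78 for SLC1A4, 1.24 for GPT2, 0.84 for SARS and 0.81 for WARS. GRB7 had 1.86, LMO4 1.72, FBXO32 1.39 and GATA6 1.20. FBXO32 and GATA6 were left at 6 h, with interactions of -0.23 and 0.31 that became 1.16 and 1.51 at 24 h.

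Below 0 were EIF5P1 with -2.28, EIF5 with -1.75, CNNM1 with -1.13, GALNT10 with -1.10, HAS3 with -1.02, PPARGC1B with -0.90 and CDC25A with -0.66. HAS3 and CDC25A had lost their positive interaction of 6 h (-0.028 and -0.070 at 24 h), while EIF5 and GALNT10, left at 6 h, had interactions of -2.14 and -1.17. The adjusted p was 0.0488 for HAS3, 0.0488 for CDC25A and 0.0488 for PPARGC1B, close to the threshold.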

How the results depend on the processing

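No named gene's value and no called interaction changed sign under any of the alternatives run, and no blocked gene became a left one or the reverse. Counts moved beyond 1.5 times most often with the GC correction and the fit of 6 h alone. RLE and upper-quartile scaling, a floor of 5 CPM and limma on the deposited log2 values kept every count of calls within 1.5 times.

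The 12 libraries of 6 h alone gave 502 genes for withdrawal with vehicle, 180 with ISRIB, 4 higher and 68 lower interactions, 313 for starved ISRIB against fed vehicle, 69 blocked, 41 left, 3 enlarged or seen with ISRIB only, and 392 undecided. DESeq2 gave 691 for withdrawal with ISRIB, 26 higher interactions, 1158 for starved ISRIB against fed vehicle, 2374 at 24 h, 399 for the difference between times and 23 enlarged or seen with ISRIB only. The GC correction gave, in the same order of results, 1817, 1433, 68 and 232, 1784, 3019 and 782, with 239 blocked, 184 left, 54 enlarged or seen with ISRIB only, and 1389 undecided. The GC correction with the replicate number as a block, chosen after seeing the data, gave 2174, 1800, 111 and 282, 2207, 3627 and 1204, with 296, 261, 92 and 1608 in the classes. With no filter there were 21 higher interactions, 7 genes for ISRIB with asparagine, 1353 for starved ISRIB against fed vehicle, 2556 at 24 h, 297 for the difference between times and 20 enlarged or seen with ISRIB only. Without the 3 libraries of most negative GC trend there were 1924 genes for withdrawal with vehicle, 24 higher interactions, 249 for the difference between times, 113 left, 16 enlarged or seen with ISRIB only, and 1641 undecided. A limit of 0.25 or 0.75 of the response in place of 0.5 gave 24 or 137 left genes, and an adjusted p of 0.01 gave 73 blocked, 43 left, 2 enlarged or seen with ISRIB only, and 307 undecided. The cause of these moves was not tested, beyond the fewer libraries or the other limits that define some of them.

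Leaving out each library of 6 h in turn gave 479 to 990 genes for withdrawal with vehicle, 188 to 444 with ISRIB, 7 to 15 higher and 84 to 134 lower interactions, 0 to 0 for ISRIB with asparagine, 242 to 885 for starved ISRIB against fed vehicle, 1390 to 2507 at 24 h and 70 to 152 for the difference between times. It gave 85 to 136 blocked, 35 to 93 left, 4 to 10 enlarged or seen with ISRIB only, and 350 to 794 undecided.

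The replicate number as a block gave 12 higher and 132 lower interactions, 127 blocked and 88 left genes, 210 for the difference between times and 15 enlarged or seen with ISRIB only. What a shared number stands for is not stated by the submitters. Deviations of same-numbered libraries from their group means correlated at 0.60 to 0.68 between fed and starved vehicle but from -0.50 to 0.74 between fed and starved ISRIB, and 10 of 12 libraries correlated best with one of their own number.

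Of the genes called in the interaction, 99 of the 115 lower and 9 of the 10 higher had a mean of at least 5 CPM at 6 h. So did 11466 of all 17409 genes tested. With 3 libraries a group the median SE of the interaction was 0.25 on the log2 scale and the smallest called interactions were 0.48 and 0.49 in size, so that smaller differences went uncalled.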
